A study of Mus musculus with 6 samples.

Results

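The AP-1 Fos and Jun family comprises 7 mouse genes, Fos, Fosb, Fosl1, Fosl2, Jun, Junb and Jund, which were taken by gene symbol as 7 rows of the 34665 in a table of read counts per gene. All 7 passed the filter on low counts that left 16924 genes. The libraries came from tumours of B16, a mouse melanoma line, with the genotype given as WT and the cells as melanoma cells. In the RI group (replicates 1, 2 and 4) radiation was given together with an immune checkpoint inhibitor. In the ICI group (replicates 1, 2 and 3) the inhibitor was given alone, so both groups carry the inhibitor and neither is untreated. The sources used here do not state the radiation dose, the inhibitor's target, the time of harvest or whether a harvested tumour had been irradiated itself. The comparison asks how the family's transcripts differed where radiation was added. The family was picked with its RI against ICI values known, so those values are a description: no p-value is given for a member, and the count of members called is set beside the share of all genes only for completeness.

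AP-1 is a transcription factor made of pairs of basic leucine zipper (bZIP) proteins. Jun proteins can pair with each other or with a Fos protein, whereas Fos proteins bind DNA stably only with a partner such as Jun. Fos, Fosb, Jun and Junb are immediate early genes: growth factor, stress and calcium signals acting through MAP kinases and the factors SRF and CREB switch them on within minutes, and their short-lived mRNAs then decay. Jund is made more steadily, and Fosl1 (Fra-1) and Fosl2 (Fra-2) usually follow later.

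The promoters are shown because the early members are switched on through promoter elements, some of which may lie outside the windows printed here. RefSeq promoters (build GRCm38.p6) were matched for 6 of the 7 genes, all but Fosl1, and the 250 bases before the RefSeq transcription start of each were searched on both strands. Capitals in the sequences mark TGACG, the first bases of the cyclic AMP response element (CRE) that CREB and ATF proteins bind, TATAAA, the TATA box, and TGACATCA, a site of the kind that Jun with an ATF protein binds in the Jun promoter. The windows are chr12:85473640-85473889 on the plus strand for Fos, chr7:19310046-19310295 on the minus strand for Fosb, chr8:84978749-84978998 on the minus strand for Junb and chr4:95052223-95052472 on the minus strand for Jun.
Fos: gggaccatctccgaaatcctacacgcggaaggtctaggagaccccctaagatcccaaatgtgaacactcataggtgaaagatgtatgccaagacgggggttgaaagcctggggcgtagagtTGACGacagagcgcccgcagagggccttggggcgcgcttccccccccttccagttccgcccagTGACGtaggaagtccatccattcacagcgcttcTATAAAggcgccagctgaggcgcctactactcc
Fosb: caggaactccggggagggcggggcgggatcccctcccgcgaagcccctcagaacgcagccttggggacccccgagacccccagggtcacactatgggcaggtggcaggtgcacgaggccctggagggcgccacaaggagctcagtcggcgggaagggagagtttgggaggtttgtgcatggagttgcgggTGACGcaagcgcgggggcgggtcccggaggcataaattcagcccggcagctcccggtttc
Junb: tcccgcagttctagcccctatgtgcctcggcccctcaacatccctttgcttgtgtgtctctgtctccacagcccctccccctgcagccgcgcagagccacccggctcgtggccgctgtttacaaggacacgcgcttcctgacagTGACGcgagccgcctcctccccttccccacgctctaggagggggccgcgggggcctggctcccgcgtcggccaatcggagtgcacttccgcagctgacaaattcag
Jun: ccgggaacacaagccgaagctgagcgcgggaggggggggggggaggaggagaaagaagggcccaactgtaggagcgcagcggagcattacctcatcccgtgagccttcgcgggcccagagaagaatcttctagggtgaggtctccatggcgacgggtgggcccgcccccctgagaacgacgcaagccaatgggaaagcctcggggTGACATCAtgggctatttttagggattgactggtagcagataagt

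TGACG was found in the windows of Fos, Fosb and Junb and in 17.8% of 32851 RefSeq windows of the same length. In Fos it stood at -129 to -125 and at -66 to -62 from the start, in Fosb at -60 to -56 and in Junb at -106 to -102. TATAAA was found in the Fos window at -33 to -28, and in 12.4% of all windows. TGACATCA lay at -45 to -38 in the Jun window, and 2.93% of all windows held it. The windows of Fosl2 and Jund held none of these 3, but they do not adjoin the GENCODE M21 gene starts given here: the Fosl2 window (chr5:32136222-32136471) lies inside that gene model, and the Jund window (chr8:70697489-70697738) ends well before its start. No window of the 6 held the full CRE TGACGTCA, which contains TGACG and occurred in 1.55% of all windows, the AP-1 site TGANTCA (6.75%) or the CArG box that SRF binds (1.47%). Sequence further upstream than these windows was not searched. Whether a CArG box, full CRE or AP-1 site lies there, in Fos or the other genes, was therefore not tested. These matches are letters in a window, not measured binding.

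The members with the largest differences belonged to the Fos group, led by Fosb and Fos, and Junb came next. Fos itself (chromosome 12, 85473890 to 85477273 on GRCm38) had 112, 39.7 and 63.1 CPM (the count scaled to library size by the TMM method) in RI replicates 1, 2 and 4, against 13.8, 15.3 and 25.1 CPM in ICI replicates 1, 2 and 3. Every RI library lay above every ICI library, and replicate 1 of RI and replicate 3 of ICI were the highest of their groups. The fitted fold change was 3.95 (log2 fold change 1.98, SE 0.42).

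Fosb, the closest relative of Fos and also the source of the long-lived variant ΔFosB (chromosome 7, 19302696 to 19310051), stood at 50.8, 15.6 and 25.0 CPM in RI replicates 1, 2 and 4. In ICI replicates 1, 2 and 3 it stood at 2.65, 3.77 and 6.001 CPM. The groups did not overlap, and the order of libraries within each group was that of Fos. Its log2 fold change of 2.87 (SE 0.51), a 7.32-fold difference, ranked 107 of 16924 genes from the top, where Fos ranked 341. Counts per gene do not separate full-length Fosb from ΔFosB transcripts.

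Fosl2, which encodes Fra-2 (chromosome 5, 32135801 to 32157842), had 46.7, 29.8 and 39.0 CPM in RI replicates 1, 2 and 4 and 28.3, 27.2 and 37.0 CPM in ICI replicates 1, 2 and 3. The groups overlapped, with ICI replicate 3 above RI replicate 2, and the log2 fold change was 0.32 (SE 0.20). Fosl1, which encodes Fra-1, a member often linked to invasive tumour cells (chromosome 19, 5447547 to 5455946), was close to the limit of detection. It had 21, 17 and 7 counts in RI replicates 1, 2 and 4, against 9, 0 and 22 counts in ICI replicates 1, 2 and 3. The count of 0 allows up to 0.0755 CPM in that library, from a floor of 3 counts that covers counting error only. Its log2 fold change of 0.98 had an SE of 0.92, and the groups overlapped. Exons of Ccdc85b on the opposite strand cover 57.2% of the Fosl1 exons, and Ccdc85b held 891 to 1532 counts in RI and 1242 to 1432 counts in ICI, so how overlapping reads were assigned bears on Fosl1.

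**Figure D1:**
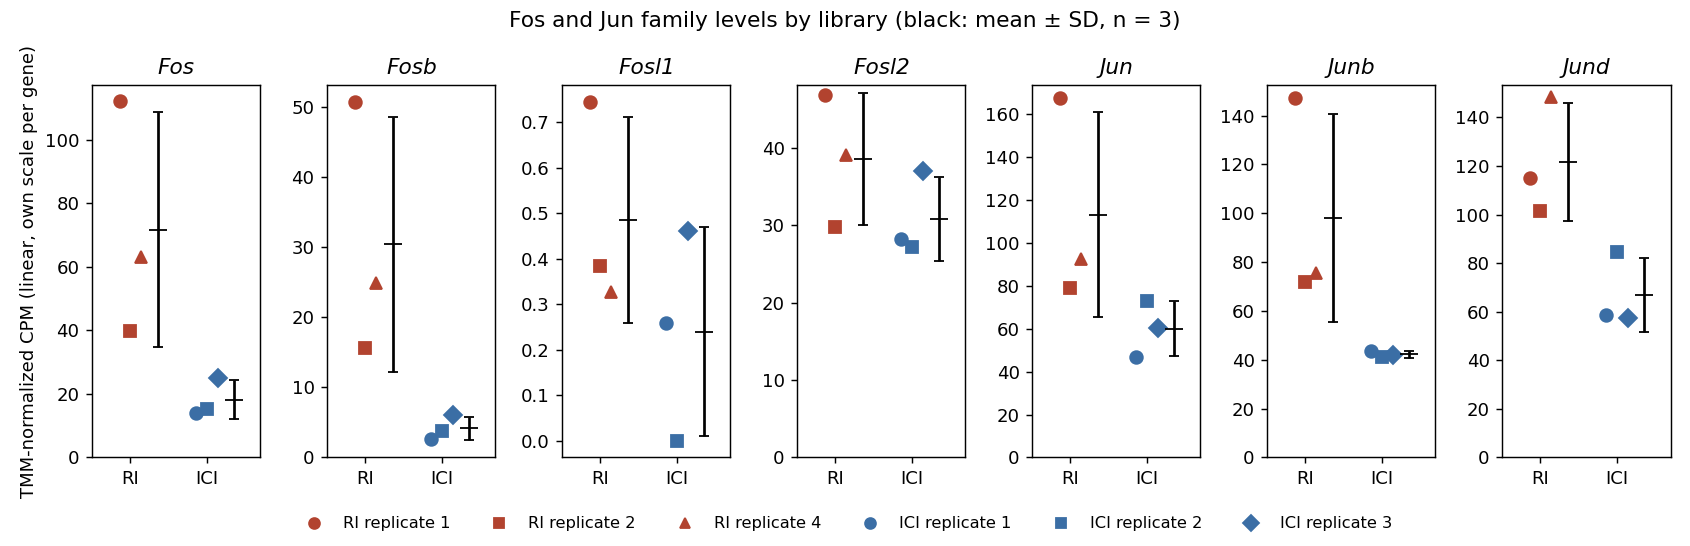
TMM-normalized CPM (linear axis, a separate scale for each gene) of the 7 members in the 3 RI and 3 ICI libraries, with the mean and SD of each group in black. RI libraries lie above all ICI libraries for Fos, Fosb, Jun, Junb and Jund, while Fosl1 and Fosl2 overlap; RI replicate 1 is the highest library for every member other than Jund.

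In the Jun group, Junb differed most. Junb, a Jun protein that can hold back the activity of Jun (chromosome 8, 84974484 to 84978718), had 147, 71.7 and 75.7 CPM in RI replicates 1, 2 and 4, against 43.8, 40.9 and 41.9 CPM in ICI replicates 1, 2 and 3. The highest ICI library was 1.07 times the lowest, and all ICI libraries lay under the RI libraries. The log2 fold change was 1.22 (SE 0.27), a 2.33-fold difference. Exons of Prdx2 on the opposite strand cover 7.52% of the Junb exons. Prdx2 held 5253 to 11317 counts in RI and 6943 to 8803 counts in ICI (log2 fold change 0.41, SE 0.12). How overlapping reads were assigned therefore bears on Junb too.

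Jun, the founding member and a main substrate of the JNK kinases (chromosome 4, 95049034 to 95052222), had 168, 78.9 and 92.7 CPM in RI replicates 1, 2 and 4. It had 46.9, 72.7 and 60.5 CPM in ICI replicates 1, 2 and 3. The groups did not overlap, but RI replicate 2 exceeded ICI replicate 2 by little, and the log2 fold change was 0.91 (SE 0.30). Jund (chromosome 8, 70698949 to 70700616) had 115, 101 and 149 CPM in RI replicates 1, 2 and 4 and 58.7, 84.6 and 57.5 CPM in ICI replicates 1, 2 and 3. It was the only member whose highest library was RI replicate 4, and its log2 fold change was 0.86 (SE 0.20). Exons of Gm11175 on the opposite strand cover 52.6% of the Jund exons, so without strand information Jund reads cannot be told apart from reads of that gene.

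By edgeR's quasi-likelihood test with Benjamini-Hochberg adjustment under 0.05, 4 of the 7 members were called higher (Fos, Fosb, Junb and Jund) and 0 lower, where 4.46% of all tested genes were called higher and 4.72% lower. In 5 of 7 the RI libraries lay above all ICI libraries, against 17.8% of all genes. The median log2 fold change over the 7 was 0.98, beside 0.01 over all tested genes. That median is the value of Fosl1, which was close to the limit of detection. The family was chosen on this contrast, so nothing is read from these shares. Of all calls 48.6% were higher, and 67.8% with upper-quartile scaling and 59.0% after a correction for transcript length and GC content. The calls depended on single libraries, for the members as for all genes. Without ICI replicate 1 or RI replicate 2, 0 members and 0 genes of any kind were called. Without ICI replicate 3, 0 members were called, and 2 genes higher and 0 lower. Without RI replicate 4, 0 members were called, and 81 genes higher and 16 lower. Without ICI replicate 2, 1 member (Jund) was called, and 234 genes higher and 291 lower. Without RI replicate 1, 4 members were called, and 1564 genes higher and 1545 lower. With all libraries, 1 (Fosb) was called after the length and GC correction, which put Junb at 0.84 and Jund at 0.52 on the log2 scale, and 2 (Junb and Jund) with no filter on low counts. In whole tumours a change in the number of cells of a type cannot be told apart from a change of RNA per cell.

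**Figure D2:**
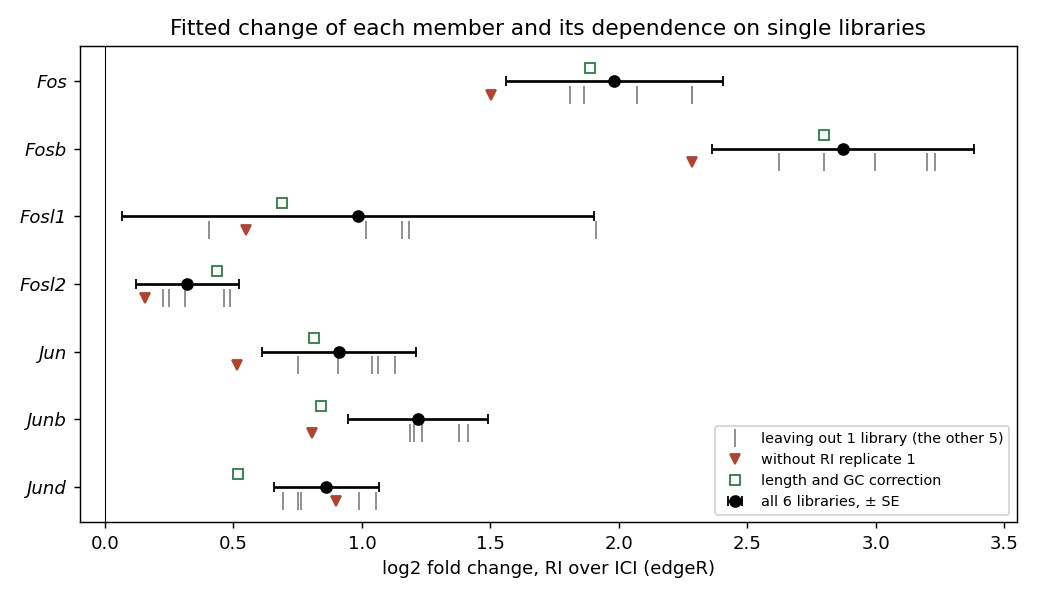
Fitted log2 fold change (RI over ICI, edgeR) of each member with its SE (black), the values with 1 library left out (grey ticks, red triangle for RI replicate 1) and the value after the length and GC correction (green square). All values are above 0; leaving out RI replicate 1 gives the lowest value for Fos, Fosb, Fosl2, Jun and Junb, and the correction moves Jund from 0.86 to 0.52.

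RI replicate 1 weighed on the size of the differences. Without it the log2 fold change was 1.501 for Fos, 2.28 for Fosb, 0.16 for Fosl2, 0.51 for Jun and 0.80 for Junb, each the lowest of the 6 fits that leave out a library, while Jund stood at 0.90. Within RI the coefficient of variation was 51.6% for Fos, 59.8% for Fosb, 42.2% for Jun and 43.3% for Junb, against 33.9%, 41.2%, 21.5% and 3.44% in ICI for the same genes in that order. Jund and Fosl2 varied less in RI, by 20.0% and 22.1%, against 22.9% and 17.5% in ICI. The median over the 11082 genes that averaged 5 CPM or more was 14.9% in RI and 11.3% in ICI. All 7 members exceeded that median in RI, Fosl1 at 46.8% on few counts, and in ICI all did other than Junb.

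The level of one member against another within a library does not depend on library scaling. Per kilobase of exon, the Fosb to Fos ratio was 0.171, 0.148 and 0.149 in RI replicates 1, 2 and 4, against 0.0721, 0.0926 and 0.0900 in ICI replicates 1, 2 and 3. The groups did not overlap and each was tight, so Fosb stood higher relative to Fos in all RI libraries, RI replicate 1 or not. The Fos to Jun ratio was 0.908, 0.683 and 0.922 in RI and 0.400, 0.286 and 0.563 in ICI, also without overlap. The Fosl2 to Fos ratio was 0.101, 0.182 and 0.150 in RI against 0.497, 0.430 and 0.358 in ICI. Among the Jun genes the ratios overlapped: Junb to Jun ran from 1.13 to 1.26 in RI and from 0.780 to 1.29 in ICI, and Jund to Jun from 1.31 to 3.06 in RI and from 1.82 to 2.39 in ICI. These ratios come from the contrast on which the family was chosen and are a description.

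**Figure D3:**
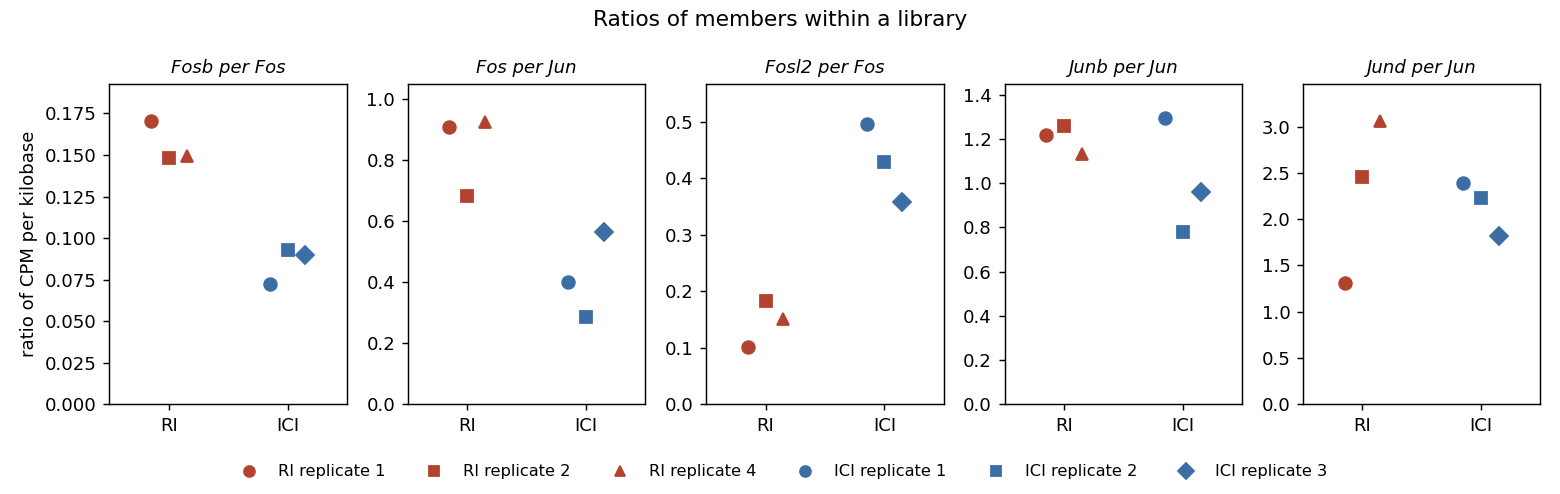
Ratios of CPM per kilobase of exon between 2 members in each of the 3 RI and 3 ICI libraries (linear axes from 0). Fosb per Fos and Fos per Jun are higher, and Fosl2 per Fos lower, in every RI library than in every ICI library, whereas Junb per Jun and Jund per Jun overlap.

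Ranked by level per kilobase of exon, Jund was highest in both groups. In RI the order of means was Jund (72.9 ± 14.6 CPM per kilobase, SD, n = 3), Junb (42.7 ± 18.5), Jun (35.4 ± 14.96), Fos (30.5 ± 15.7), Fosb (4.88 ± 2.92), Fosl2 (3.98 ± 0.878) and Fosl1 (0.239 ± 0.112). In RI the ranges of Jund and Junb, Junb and Jun, Jun and Fos, and Fosb and Fosl2 overlapped, and only RI replicate 1 had more Fosb than Fosl2. In ICI the order was Jund (40.1 ± 9.18), Jun (18.8 ± 4.05), Junb (18.3 ± 0.630), Fos (7.70 ± 2.61), Fosl2 (3.18 ± 0.558), Fosb (0.663 ± 0.273) and Fosl1 (0.118 ± 0.113). There Jun and Junb overlapped, and every other pair of neighbours was separate in the 3 libraries. Dividing by the longest transcript in place of all exons, an alternative added after the data were seen, put Junb above Jun in ICI (23.3 against 18.8) and Fosb further above Fosl2 in RI (8.05 against 5.89).

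The summed level of the 7 genes was 247, 139 and 186 CPM per kilobase in RI replicates 1, 2 and 4, against 78.3, 101 and 87.3 in ICI replicates 1, 2 and 3. Most of it was Jun, Junb and Jund in every library. Fos made up 19.4%, 12.1% and 14.4% of the sum in RI and 7.51%, 6.45% and 12.2% in ICI, so RI replicate 2 and ICI replicate 3 overlapped. Fosb made up 3.30%, 1.80% and 2.15% in RI and 0.541%, 0.597% and 1.101% in ICI, without overlap.

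**Figure D4:**
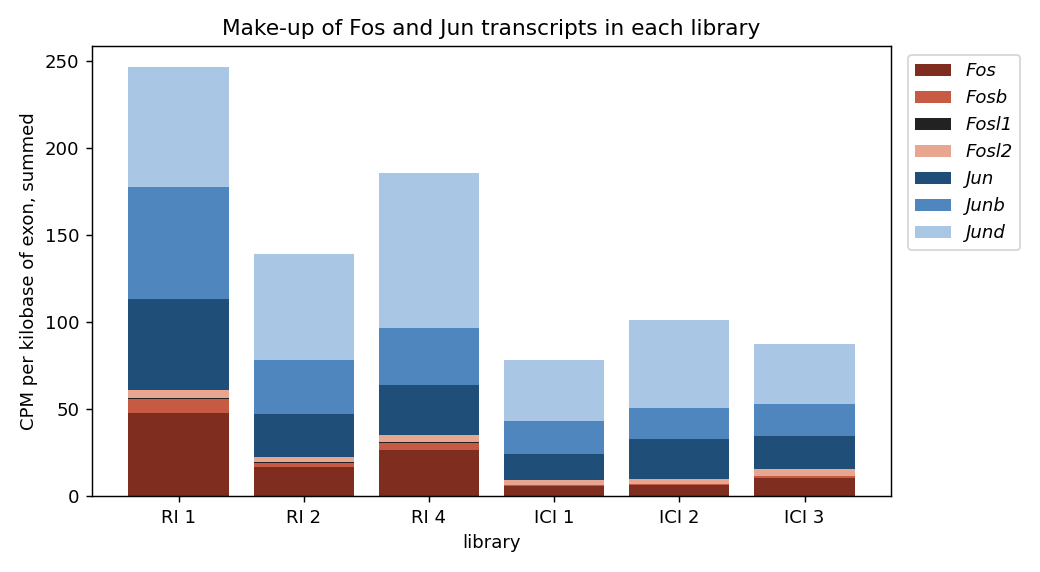
Stacked CPM per kilobase of exon of the 7 members in each library, RI libraries left of ICI libraries. The sums run from 139 to 247 in RI and from 78.3 to 101 in ICI, and Jund, Junb and Jun (blue) form most of each bar.

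Around the family, the feedback genes Dusp1 and Zfp36 rose, and several genes of the cascade above it fell. The lists of pathway genes were drawn up with earlier results of these data known, so their counts are a description. Over all 16924 tested genes 4.46% were called higher and 4.72% lower, and the unadjusted edgeR p was under 0.05 for 5335. DESeq2 called 1532 higher and 1559 lower of 34637 genes, and limma-voom 635 and 691 of 16924. Of 9 MAP kinase phosphatases 1 rose, 0 fell and 8 did not pass (median log2 fold change 0.22, beside 0.01 over all tested genes). The unadjusted edgeR p was under 0.05 for 1 that was higher and 0 that were lower, DESeq2 called 1 higher and 0 lower, and limma-voom called 0. Dusp1, an early phosphatase that turns off p38 and JNK, had 50.1, 20.4 and 22.3 CPM in RI, against 12.2, 7.35 and 11.6 CPM in ICI (log2 fold change 1.57, SE 0.38, adjusted p = 0.0477, edgeR). All RI libraries were above all ICI libraries. Dusp6, which acts on ERK, averaged 180 and 147 CPM in RI and ICI and did not pass (adjusted p = 0.228), nor did Dusp4 at 45.1 and 62.1 CPM (adjusted p = 0.526).

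Of 20 MAP kinase cascade genes 0 rose and 4 fell, beside 4.46% and 4.72% of all tested genes. The other 16 did not pass (median log2 fold change -0.04). The unadjusted edgeR p was under 0.05 for 2 that were higher and 6 that were lower, beside 5335 of all 16924 tested genes. DESeq2 called 0 higher and 6 lower and limma-voom 0 and 4. Among the kinases that fell was Mapk14, the p38α kinase, at 100, 92.0 and 91.7 CPM in RI against 153, 124 and 157 CPM in ICI (adjusted p = 0.0388). Braf, a kinase that starts the ERK cascade, fell by 0.50 on the log2 scale (SE 0.11, adjusted p = 0.0378). Mapk3, which encodes ERK1, averaged 156 and 118 CPM in RI and ICI (adjusted p = 0.107), and Map2k2, a kinase of ERK, 222 and 207 CPM (adjusted p = 0.629).

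Of 13 transcription factors that act on the Fos and Jun promoters 0 rose and 2 fell, beside 4.46% and 4.72% of all tested genes. The other 11 did not pass (median log2 fold change -0.27). The unadjusted edgeR p was under 0.05 for 1 that was higher and 5 that were lower, beside 5335 of all 16924 tested genes. DESeq2 and limma-voom each called 0 higher and 2 lower. Creb1, the factor that binds the CRE, had 25.9, 35.2 and 39.7 CPM in RI against 60.7, 56.0 and 60.9 CPM in ICI, a fall of 0.82 on the log2 scale (SE 0.17, adjusted p = 0.0346). Mrtfb, an SRF coactivator, fell by 0.52 (SE 0.12, adjusted p = 0.0437). Stat3 averaged 120 and 157 CPM and Elk3 87.7 and 80.0 CPM in RI and ICI, and neither passed (adjusted p = 0.262 and 0.534). Of 13 other bZIP partners 0 rose and 1 fell, beside the same 4.46% and 4.72%, and 12 did not pass (median log2 fold change 0.02). For 2 higher and 3 lower ones the unadjusted edgeR p was under 0.05, DESeq2 called 1 of each and limma-voom 0. Atf2, which pairs with Jun, fell by 0.50 (SE 0.13, adjusted p = 0.0477), while Atf4, a stress factor, at 474 and 467 CPM, and Mafg, a small Maf protein, at 106 and 131 CPM, did not pass (adjusted p = 0.966 and 0.190).

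**Figure D5:**
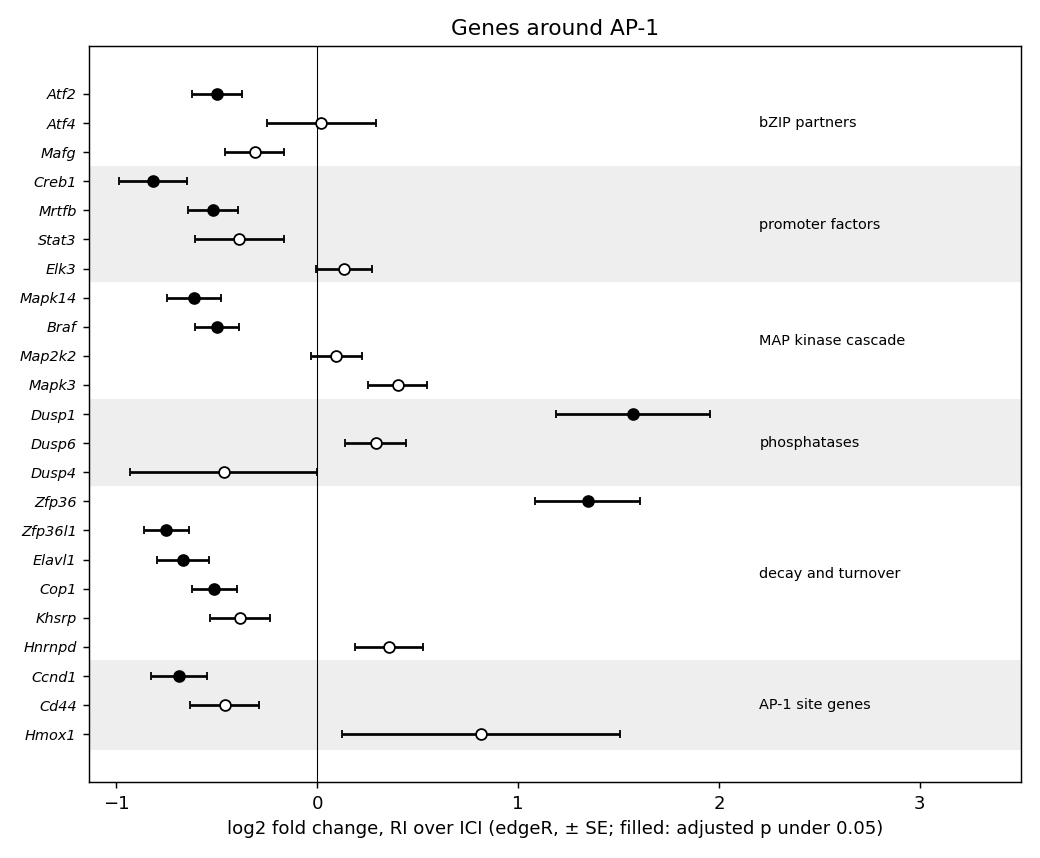
Log2 fold change (RI over ICI, edgeR, with SE) of pathway genes named by rule, grouped by list; filled points passed an adjusted p under 0.05. Dusp1 and Zfp36 are the filled points above 0, and 9 others, Creb1 and Zfp36l1 furthest out, lie below 0.

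Genes of mRNA decay and protein turnover went both ways. Of 12, 1 rose and 3 fell, beside 4.46% and 4.72% of all tested genes, and 8 did not pass (median log2 fold change -0.22). Zfp36, itself an early gene whose product binds AU-rich elements and speeds the decay of mRNAs that carry them, had 52.9, 28.5 and 28.5 CPM in RI against 12.4, 15.2 and 15.6 CPM in ICI (log2 fold change 1.35, SE 0.26, adjusted p = 0.0328). Its relative Zfp36l1 fell by 0.75 (SE 0.11, adjusted p = 0.0254), at 31.3, 33.0 and 33.8 against 53.8, 57.0 and 54.1 CPM, although antisense Gm26669 covers 55.9% of its exons. Elavl1, which encodes the mRNA-stabilizing protein HuR, fell by 0.67 (SE 0.13, adjusted p = 0.0320). Cop1, part of a ubiquitin ligase that degrades Jun, fell by 0.51 (SE 0.11, adjusted p = 0.0378). Khsrp and Hnrnpd, both AU-rich element binding proteins, averaged 188 and 143 CPM in RI and 245 and 111 CPM in ICI and did not pass (adjusted p = 0.126 and 0.190).

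Among genes with textbook AP-1 sites 1 passed the test. Of 17 tested of 18, 0 rose and 1 fell, beside 4.46% and 4.72% of all tested genes. The other 16 did not pass (median log2 fold change 0.17). For 1 higher and 3 lower genes the unadjusted edgeR p was under 0.05, beside 5335 of all 16924 tested genes. DESeq2 and limma-voom each called 0 higher and 1 lower. The gene that fell was Ccnd1, which encodes cyclin D1, at 46.2, 34.9 and 41.5 CPM in RI against 70.4, 66.3 and 60.8 CPM in ICI (log2 fold change -0.69, SE 0.14, adjusted p = 0.0346). Exons of LTO1 on the opposite strand cover 23.4% of the Ccnd1 exons. The adhesion receptor gene Cd44 averaged 354 and 487 CPM and the heme oxygenase gene Hmox1 209 and 119 CPM in RI and ICI, and neither passed (adjusted p = 0.111 and 0.454). The matrix protease gene Mmp3, chosen after its values were seen, had 8.30, 1.06 and 1.35 CPM in RI replicates 1, 2 and 4. In ICI replicates 1, 2 and 3 it had 0.805, 0 and 1.61 CPM, so the groups overlapped. It averaged 3.57 and 0.805 CPM with a log2 fold change of 2.13 and an SE of 1.38 (adjusted p = 0.331).

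Of 20 other immediate early genes 4 rose and 0 fell, beside 4.46% and 4.72% of all tested genes. The other 16 did not pass (median log2 fold change of the 20, 0.63). In 13 all RI libraries lay above all ICI libraries, where 17.8% of all genes did. For 9 higher genes and 1 lower gene the unadjusted edgeR p was under 0.05, beside 5335 of all 16924 tested genes. DESeq2 called 8 and 1, and limma-voom 4 and 0. Per1, a clock gene that CREB induces, had 105, 99.6 and 90.2 CPM in RI against 25.6, 40.8 and 32.6 CPM in ICI (adjusted p = 0.0189), and Klf2, a factor of quiescent endothelium and T cells, 21.6, 18.0 and 18.2 against 5.87, 5.64 and 4.39 CPM (adjusted p = 0.0189). In both, unlike Fos, RI replicate 1 lay close to the other RI libraries. Ier2 and the nuclear receptor gene Nr4a1 rose by 0.81 and 0.80 on the log2 scale (SE 0.17 and 0.16, adjusted p = 0.0346 for each). Nr4a3, of the same receptor family, was at 107, 67.2 and 96.7 CPM in RI and at 268, 149 and 123 CPM in ICI and did not pass (adjusted p = 0.0799). Klf6 averaged 161 and 117 CPM (adjusted p = 0.102).

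Of the 17 pathway genes called, 4 (Zfp36, Zfp36l1, Klf2 and Per1) were also called after the length and GC correction, and none of the kinases, promoter factors or bZIP partners was. All 17 kept their sign in that fit. They were all called without RI replicate 1, and 0 of 17 without ICI replicate 1, ICI replicate 3 or RI replicate 2, 2 without RI replicate 4 and 7 without ICI replicate 2. In those 5 fits all 17 stood at an unadjusted p under 0.05. Without ICI replicate 1, 3701 of 17746 genes did so, and 5099 of 17388 without ICI replicate 2. The 17 were picked by their p over all 6 libraries, most of which these fits reuse, so nothing is read from this. After the length and GC correction 15 of the 17 stood under that mark.

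The genes most like the family were ranked by Pearson's r over the 6 libraries between log2 CPM and the mean of the members' centred log2 CPM, among 10415 named genes with a mean over the 6 libraries of at least 5 CPM, which a gene can reach through the RI libraries alone, as Galnt15 did. The first 10 were Galnt15 (r = 0.992), Fabp4 (0.988), Nfkbia (0.987), Gadd45g (0.984), Nfatc2 (0.982), Vegfb (0.981), Lmna (0.978), Bag6 (0.974), Spry1 (0.974) and Gsta4 (0.972). All were highest in RI replicate 1 of the RI libraries and in ICI replicate 3 of the ICI libraries, as Fos and Fosb were. The members' mean had that order too, so the ranking itself picked for it. The mucin-type glycosyltransferase gene Galnt15 had 21.2, 6.58 and 6.86 CPM in RI and 1.55, 1.13 and 2.89 CPM in ICI. The stress gene Gadd45g had 18.8, 11.3 and 12.6 CPM in RI and 6.27, 5.11 and 6.61 CPM in ICI, and Nfkbia, the feedback inhibitor of NF-κB, 33.6, 26.3 and 27.9 against 18.6, 19.9 and 21.7 CPM. Without RI replicate 1, 2 of these 10 stayed among the first 10, and over deviations from the group means 0 did.

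Library totals ran from 22543721 to 45624013 counts in RI and from 32201558 to 43109047 counts in ICI. RI replicate 1, the highest library for 6 members, had counts on 29748 genes, against 22763 to 24891 in the other 5 libraries. Mitochondrially encoded genes took 11.5% to 14.7% of counts in RI and 4.39% to 5.01% in ICI. All 7 melanoma markers were present in every library, with a summed level of 10072 to 14379 CPM in RI and 13339.8 to 15180 CPM in ICI. Of these 1 rose, 0 fell and 6 did not pass: Mlana, a melanosome protein gene, was at 832, 1037 and 1026 CPM in RI against 496, 653 and 571 CPM in ICI (adjusted p = 0.0376).

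Markers of other cell types were present at varying levels. Of 6 adipocyte markers 1 rose, 0 fell and 5 did not pass. Their sum was 54.5 to 78.5 CPM in RI against 0.679 to 25.1 CPM in ICI, highest in RI replicate 1 and ICI replicate 3 of their groups, as for Fos, with Plin1, Cfd and Cidec at 0 in at least 1 library. The 5 fibroblast markers showed the same order of highest libraries, with sums of 485, 302 and 243 CPM in RI replicates 1, 2 and 4 against 205, 74.6 and 497 CPM in ICI replicates 1, 2 and 3. Among them Dcn lay higher in all RI libraries than in all ICI libraries and did not pass (adjusted p = 0.166). The 5 macrophage markers summed to 84.7 to 179 CPM in RI and 88.8 to 99.4 CPM in ICI, and the 5 endothelial markers to 56.0 to 164 CPM in RI and 56.5 to 146 CPM in ICI. The 5 neutrophil markers, of which 3 were tested and Ly6g was at 0 in at least 1 library, summed to 2.01 to 10.9 CPM in RI and 1.38 to 2.63 CPM in ICI. The macrophage, endothelial and neutrophil sums were also highest in RI replicate 1 and ICI replicate 3, so that order was not particular to adipocyte and fibroblast markers. S100a8 and S100a9 had log2 fold changes of 2.28 and 2.11 and did not pass (adjusted p = 0.111 and 0.0767, edgeR). S100a8 stood at 6.28, 1.28 and 0.56 CPM in RI replicates 1, 2 and 4, and both overlapped between the groups. Csf3r, also tested, went the other way (log2 fold change -0.52, adjusted p = 0.549). The 5 T cell markers summed to 0.840 to 8.76 CPM in RI and 2.40 to 33.4 CPM in ICI.

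The keratinocyte markers, 5 of 6 with a row and 2 tested, summed to 4.39 to 5.21 CPM in RI and 2.15 to 3.17 CPM in ICI, with Krt5, Krt14 and Krt10 at 0 in at least 1 library. The 6 skeletal muscle markers summed to 14.7 to 2097 CPM in RI and 1.11 to 189 CPM in ICI, and the 5 red cell markers to 109 to 454 CPM in RI and 226 to 4478 CPM in ICI. In the fibroblast, macrophage, endothelial, neutrophil, T cell, keratinocyte, muscle and red cell lists edgeR called 0 markers. It called 4.46% of all tested genes higher and 4.72% lower. The unadjusted edgeR p was under 0.05 for 1 fibroblast, 2 macrophage, 2 neutrophil and 2 keratinocyte markers, all higher. Over all tested genes it was under 0.05 for 5335 of 16924. DESeq2 called 1 macrophage, 2 neutrophil, 1 keratinocyte and 1 muscle marker, and limma-voom 0. Within RI replicate 1 had the highest sum in every marker list other than that of red cells. The part of these cell types in the levels of Fos and Jun genes was not tested.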

How the data were processed

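RNA of B16 tumours was sequenced in 6 libraries, 3 in each of RI and ICI. The authors deposited whole-number counts per Ensembl gene. The submitters' processing notes name HISAT2 for alignment and the builds GRCm38 and mm10. The sources used here do not state the counting tool, annotation, strand setting or versions. Library differences exceeded sampling noise (chi-square per degree of freedom at least 36.3 for every pair). The labels do not say that each library is a separate animal, so the spread behind each p-value may be technical.

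Counts were tested with edgeR 4.0.16 in R 4.3.3: filterByExpr, TMM, robust quasi-likelihood, Benjamini-Hochberg over 16924 genes. SEs come from the coefficient and its F statistic. DESeq2 1.42.0, limma-voom (limma 3.58.1), other scalings and filters, a length and GC correction (mgcv 1.9.3), a replicate block and leaving out each library were alternatives. Positions, exon overlap and lengths are from GENCODE M21, which held 33888 of 34665 identifiers. A search of the members' transcripts with blastn 2.17.0 for stretches of at least 200 bases at 95% identity in other genes found the antisense genes Ccdc85b, Junos and Gm11175. The procedure was tested on simulated data. Members and lists were chosen with earlier results of these data known. From each list up to 4 called genes by size and 2 others by level are named. Intervals and floors cover counting error only. Some genes that the naming rule took are not reported here.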

Additional observations from a re-analysis of the deposited data

How the results depend on the processing

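The numbers of genes called higher and lower, 754 and 799, were 270 and 188 after the length and GC correction and 1532 and 1559 with DESeq2. Fewer were called lower with upper-quartile scaling (497) and more with no filter on low counts (1507). Of the family, 2 members were called with no filter (Junb and Jund) and 1 after the correction (Fosb), against 4. Leaving out 1 library gave 0 to 1564 higher, 0 to 1545 lower and 0 to 4 members. The groups share only replicate numbers 1 and 2, and the labels do not say what a number marks. Deviations from the group means correlated at 0.353 across genes between the libraries numbered 1 and at 0.0909 between those numbered 2. The replicate block over those 4 libraries gave 342 higher, 192 lower and 1 member (Junb). The same 4 libraries without the block, added after the data were seen, gave 25 higher, 0 lower (3359 genes at an unadjusted p under 0.05) and 0 members. Log2 fold changes of all 7 members stayed above 0 in every fit run. Values of 3 pathway genes changed sign; the cause was not tested. Atf4 (0.02) was at -0.029 with no filter, -0.16 after the correction, -0.16 without ICI replicate 1, -0.10 without ICI replicate 3, -0.18 without RI replicate 4, 0.34 without ICI replicate 2, -0.23 with the block and -0.30 in those 4 libraries without it. Map2k2 (0.10) was at -0.16 after the correction, and Hmox1 (0.82) at -0.011 with the block. Fosl1, at 0 to 22 counts, is limited by depth.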
